A study of Mus musculus with 29 samples.

Results

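Of 5552 mouse genes with at least 2600 poly(A) site reads, 2735 genes (49.3%) sent at least 95% of their reads to a single site and are called one-site genes here. The other 2817 genes, with the same read minimum and a leading site under 95%, are called several-site genes. Genes were chosen by their total reads and by the share of reads at the leading site, over all 26 libraries of transcript 3′ ends, on the chromosome and strand that held most reads of a gene, after positions listed under more than 1 gene symbol had been left out. The minimum amounts to a mean of 100 reads per library, and 15954 genes had at least 1 read. Total reads and the share of the leading site were thus fixed by the choice and are given as description only.

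A poly(A) site is the position at which a nascent transcript is cut and given its poly(A) tail. Most mammalian genes have several sites, and the choice among them sets the length of the 3′ UTR, which can carry signals for where an mRNA goes in the cell and how it is translated. A gene that uses a single site alone cannot vary its 3′ UTR in this way. One-site genes here come close to this, and 1059 of the 2735 had no read at any other listed site. Counts were summed over all sites of a gene, so minor sites can contribute a small part to differences between cell fractions.

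The study used C2C12, an established mouse myoblast line that fuses into muscle fibres when serum is reduced, and separated cells into a membrane fraction, which holds the endoplasmic reticulum (ER), and a cytosol fraction. The 26 libraries were made by 3′READS+, which sequences the fragment next to the poly(A) tail. Of these, 16 came from gradients that part polysomes, mRNAs with several ribosomes, from monosomes, with 2 replicates in each of 8 groups. A further 3 libraries were RNA-seq of membrane, cytosol and insoluble material of proliferating cells, 1 each.

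The gradient groups were membrane polysome, membrane monosome, cytosol polysome and cytosol monosome, each in differentiating and in proliferating cells. Differentiating polysome cells were kept in 2% horse serum and proliferating cells in 10% fetal bovine serum. The labels give differentiating monosome cells the fetal bovine serum medium although their status is differentiating. The puromycin set was made from proliferating cells left untreated or given 100 µg/ml puromycin, a drug that releases the growing protein chain from the ribosome, for 0, 30 or 60 min, with 1 membrane and 1 cytosol library each. A whole membrane and a whole cytosol library of proliferating cells, 1 each and not split on a gradient, completed the set. All libraries thus came from 1 cell line, and the labels do not say whether replicates were separate cultures, so p-values measure the spread between libraries, which may be technical. Relative abundance within a fraction was measured, and less RNA of a gene per cell cannot be told apart from fewer cells that carry it.

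Libraries held 2962101 to 11620324 reads in genes. The state labels were checked with 13 myoblast and muscle markers, whose summed level was 9032 to 45338 CPM (here, read counts divided by the library's reads in genes and scaled to a common size) in differentiating polysome libraries, 4987 to 20149 CPM in differentiating monosome libraries, and 463 to 1168 CPM in proliferating gradient libraries. The differentiating monosome libraries therefore stood with the differentiating cells and against their medium label. The 16 detected markers of leukocytes, endothelium, epithelium and neurons summed to 132 to 202 CPM in differentiating polysome, 141 to 313 CPM in differentiating monosome and 112 to 352 CPM in proliferating gradient libraries.

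One-site genes were the more abundant class. They held 70.4% of all gene reads, against 26.4% for several-site genes, with a median of 12471 reads per gene, against 6879 reads for several-site genes. The one-site share was 33.9% of the 1576 genes with 2600 to 5000 reads, 44.5% of 1384 genes with 5000 to 10000 reads, 55.1% of 1637 genes with 10000 to 30000 reads, 68.5% of 702 genes with 30000 to 100000 reads and 79.4% of 253 genes above that. The median one-site gene had 99.8% of its reads in its leading site, 1773 genes had at least 99%, and 1059 genes (38.7%) had no read at any other listed site. For the median several-site gene the leading site held 76.1%. Just inside the limit lay Sh3glb2 with 95.0058%, Zw10 with 95.0076% and Prdx1 with 95.0125%, and just outside it Abcf3 with 94.9957%, Polr2g with 94.9930% and Clk1 with 94.9876%, so the limit divides a continuous range.

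Where a one-site gene had a minor second site (1676 genes), that site lay upstream of the leading site in 1210 genes (72.2%). In these the leading site was the more distal of both, and further sites were not compared. Among several-site genes the second site lay upstream in 57.4%. The median distance between both sites was 906.5 nt in one-site genes and 718 nt in several-site genes. Shares in individual libraries followed in large part from the choice, which pooled these same libraries, and are given as description. Between 106 and 269 of the 2531 to 2732 one-site genes with at least 20 reads in a library fell under 95% there, and 0 to 18 fell under 80%.

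**Figure D1:**
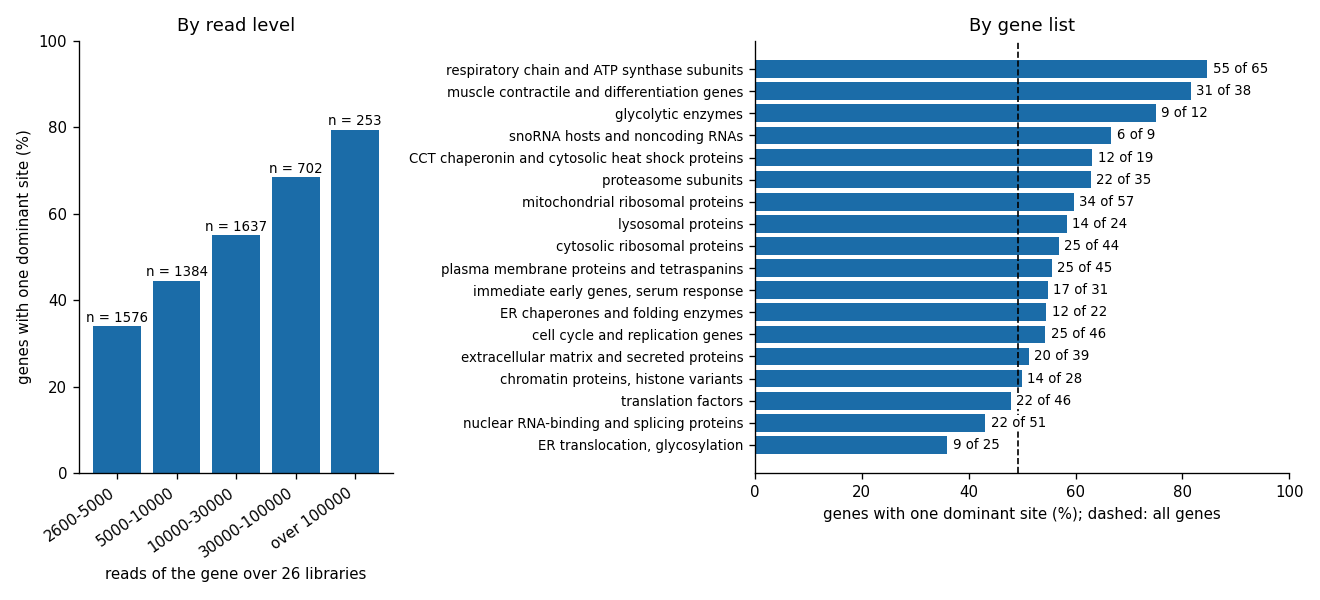
Share of genes with one dominant poly(A) site, in percent of genes with at least 2600 reads, by read level (left) and by gene list (right, with the number of one-site genes of all list genes above the read minimum). The dashed line marks 49.3%, the share over all 5552 genes; the share is 33.9% in the lowest and 79.4% in the highest read level.

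The share of one-site genes differed among gene lists. Nuclear genes for the respiratory chain and ATP synthase, which make ATP in mitochondria, were one-site in 55 of 65 cases (84.6%). Muscle contractile and differentiation genes were one-site in 31 of 38 (81.6%) and glycolytic enzymes in 9 of 12 (75%). Cytosolic ribosomal proteins stood at 25 of 44 (56.8%), mitochondrial ribosomal proteins at 34 of 57 (59.6%) and proteasome subunits at 22 of 35 (62.9%). Among genes of the secretory route, ER chaperones stood at 12 of 22 (54.5%), lysosomal proteins at 14 of 24 (58.3%), plasma membrane proteins at 25 of 45 (55.6%) and extracellular matrix and secreted proteins at 20 of 39 (51.3%). Below the overall share were translation factors with 22 of 46 (47.8%), nuclear RNA-binding and splicing proteins with 22 of 51 (43.1%) and the ER translocation and glycosylation machinery with 9 of 25 (36%). These shares were not corrected for the read levels of the lists.

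RNA-seq gave a view of the same genes that the choice had not used. Its table gave reads in a constitutive part of the 3′ UTR, before a proximal site, and in an alternative part between the proximal and a distal site. It listed 2116 one-site and 2397 several-site genes. In the membrane library the median log2 ratio of alternative to constitutive reads was −3.46 over 1970 one-site genes with at least 20 constitutive reads, against 0.77 over 2124 several-site genes. In the cytosol library the medians were −3.91 for one-site and 0.37 for several-site genes, and in the insoluble library −2.95 and 0.71 in the same order. No read in the alternative part was found for 26.5% of one-site genes and 7.8% of several-site genes of the membrane library. Still, 29.8% of one-site genes had more alternative than constitutive reads there, against 57.7% of several-site genes. With 1 library per fraction these values have no replicate check, and the parts differ in length, which was not corrected.

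The position of the minor site went with these ratios. In the membrane RNA-seq library the median log2 ratio of alternative to constitutive reads was −1.83 over 851 one-site genes with an upstream minor site. It was −2.98 over 347 with a downstream one and −5.39 over 772 with no other site with reads. More alternative than constitutive reads were found in 326, 98 and 163 genes of these groups, so most genes with an upstream minor site had fewer.

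In proliferating cells, membrane association of one-site genes spanned a range as wide as that of several-site genes. By the quasi-likelihood test of edgeR with Benjamini-Hochberg adjustment at 0.05, 724 of 2735 one-site genes were higher in membrane than in cytosol and 530 were lower. The counts were 795 and 497 of 2817 for several-site genes, and over all 11151 genes tested 23.2% were higher and 11.6% lower. All one-site genes passed the filter on low counts of this fit. The middle 80% of one-site genes lay between log2 ratios of −1.08 and 2.34, and of several-site genes between −1.03 and 2.30. At least 4-fold differences in either direction were measured for 371 one-site genes (13.6%) and 371 several-site genes (13.2%).

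The class medians, in log2 membrane to cytosol, were −0.02 for one-site, 0.10 for several-site and 0.18 for all genes tested. The class difference of −0.116 was accompanied by a difference in read level. Among genes with at least 10000 reads the median was −0.15 for 1584 one-site and −0.17 for 1008 several-site genes, and under 10000 reads 0.14 and 0.21. With DESeq2 size factors, which put the median of all genes at 0, the split turned to 643 one-site genes higher and 706 lower, and over all genes to 2232 higher and 1792 lower.

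**Figure D2:**
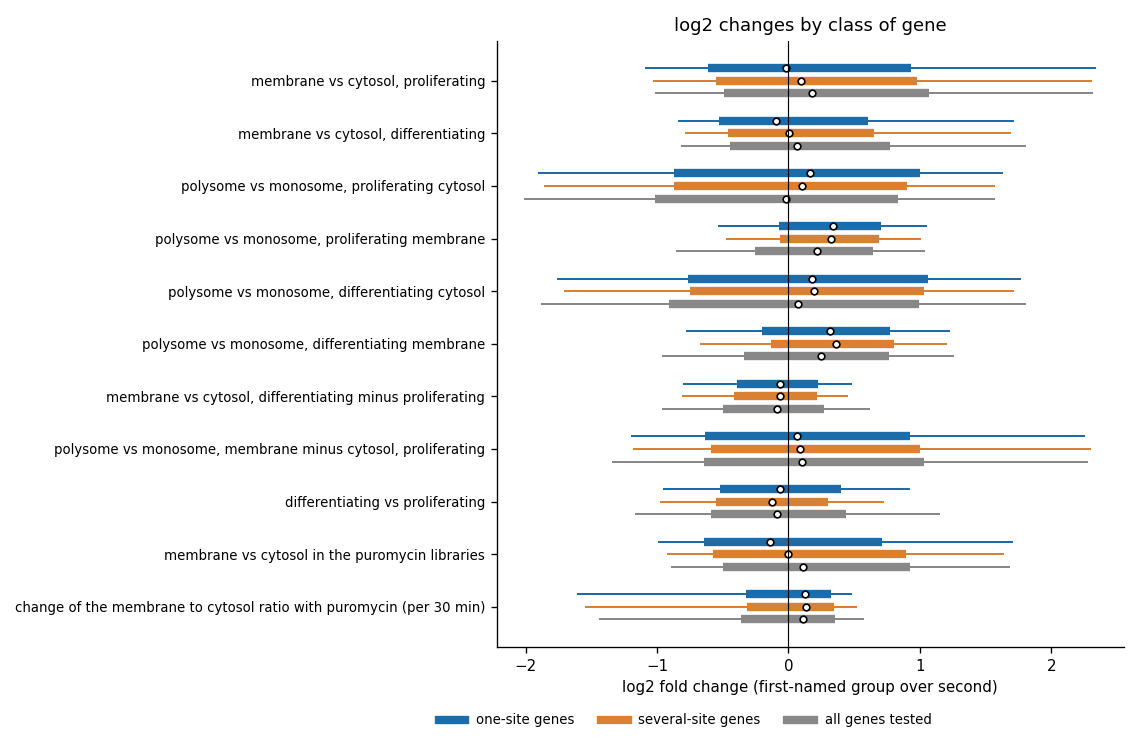
Distribution of log2 ratios of one-site (blue), several-site (orange) and all genes tested (grey) in 11 comparisons, with the 10th to 90th percentile as thin line, the 25th to 75th as thick line and the median as white dot. One-site and several-site genes overlap over most of their range in each comparison. In membrane against cytosol of proliferating cells the medians are −0.02 for one-site, 0.10 for several-site and 0.18 for all genes tested. Between states all genes tested spread wider, with a 10th to 90th percentile of −1.16 to 1.15. One-site genes have −0.95 to 0.91 there and several-site genes −0.97 to 0.72. The puromycin slope is per 30 min.

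One-site genes for secreted and membrane proteins were high in the membrane fraction of proliferating cells. All 12 one-site ER chaperones and folding enzymes, which fold proteins in the ER, were called higher, with a median log2 ratio of 2.78. So were 14 of 14 lysosomal genes (median 3.03), 24 of 25 plasma membrane genes (2.95), 19 of 20 matrix and secreted genes (3.18) and 7 of 9 genes of ER translocation and glycosylation (2.00). The medians of several-site genes in the same lists were 2.84 (10 of 10 higher), 2.99 (10 of 10), 2.92 (19 of 20), 3.53 (17 of 19) and 2.51 (16 of 16). Among the translocation genes Ost4, a very small subunit of the oligosaccharyltransferase, was lower in membrane with a log2 ratio of −1.27, and Sec61b, a tail-anchored subunit of the translocon, had −0.62 and was not called. Ifitm1, a small interferon-induced membrane protein, had −0.17 and was not called.

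Levels of single genes are given as CPM after TMM scaling of the libraries. Pdia3, a disulfide isomerase of the ER lumen whose single site lies on chromosome 2 at 121263716 (build mm9, plus strand), had 1109 and 1626 CPM in proliferating membrane polysome and 980 and 1721 CPM in membrane monosome libraries. It had 26.9 and 20.3 CPM in cytosol polysome and 71 and 70.8 CPM in cytosol monosome libraries. The 4 membrane values all lay above the 4 cytosol values, and the log2 ratio was 5.05 ± 0.28 (SE, adjusted p = 8.2e-07). Cd63, a tetraspanin of late endosomes and lysosomes with 2098995 reads at chromosome 10, 128349878 (mm9, plus strand), had 25683 and 29532 CPM in membrane polysome and 9061 and 17040 CPM in membrane monosome libraries. Its cytosol values were 654 and 770 CPM in polysome and 1925 and 2915 CPM in monosome libraries. Again the fractions did not overlap, and the log2 ratio was 3.85 ± 0.35 (SE, adjusted p = 3.7e-06).

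Col3a1, a fibrillar collagen chain at chromosome 1, 45405865 (mm9, plus strand), had 2347 and 1584 CPM in membrane polysome, 3850 and 2155 CPM in membrane monosome, 62.1 and 23.8 CPM in cytosol polysome and 140 and 62.6 CPM in cytosol monosome libraries of proliferating cells. All membrane values were far above all cytosol values, with a log2 ratio of 5.20 ± 0.39 (SE, adjusted p = 1.55e-06). The highest ratio of any named one-site gene was that of Cstf2t, a paralogue of a polyadenylation factor subunit that acts in the nucleus, at chromosome 19, 31161481 (mm9, plus strand). Cstf2t had 186 and 841 CPM in membrane polysome and 1534 and 4088 CPM in membrane monosome libraries, against 30.6 and 17.8 CPM in cytosol polysome and 32.1 and 25.7 CPM in cytosol monosome libraries. No library of one fraction reached the other, although membrane replicates differed several-fold, and the log2 ratio was 5.51 ± 0.49 (SE, adjusted p = 3.93e-06). The other leading genes were Grn with 4.42, Cd81 with 4.31, Igsf8 with 4.30, Degs1 with 4.29, Fkbp7 with 4.23, Aebp1 with 4.20 and Sparc with 4.17.

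One-site genes for the cytosolic translation apparatus were low in the membrane fraction. Of 25 one-site ribosomal proteins, 20 were called lower and 0 higher, with a median of −1.46 (several-site 16 lower of 19, −1.19). Of 22 one-site translation factors, 14 were lower and 0 higher, with a median of −0.81. Rpl41, at chromosome 10, 127985170 (mm9, minus strand), had 148 and 342 CPM in membrane polysome, 960 and 1164 CPM in membrane monosome, 854 and 675 CPM in cytosol polysome and 5458 and 6998 CPM in cytosol monosome libraries. Within each gradient part its cytosol values were above its membrane values, with a log2 ratio of −2.10 ± 0.34 (SE, adjusted p = 0.000359). Ribosomal protein genes have many near-identical copies in the genome, and how reads were shared out among copies is not given in the sources used here, so their values are uncertain.

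Mitochondrial lists split. Of 34 one-site mitochondrial ribosomal proteins 19 were lower and 4 higher (Mrpl2, Mrpl37, Mrpl38 and Mrps22), with a median of −0.74. Of 55 respiratory genes 16 were lower and 5 higher, with a median of −0.50. The higher ones were Uqcrc1, a core protein of complex III, with 1.79, Ndufv1, of the matrix arm of complex I, with 1.83, Atp5b, the catalytic subunit of ATP synthase, with 1.42, Ndufa9 with 1.40 and Ndufb5 with 0.78. The lowest was Atp5k, a small ATP synthase subunit, with −1.80. Outside the lists the lowest named ratios included Atox1, a copper chaperone, with −2.12 ± 0.21 (SE, adjusted p = 8.32e-06) and Hmgn1, a nucleosome-binding protein, with −2.09 ± 0.24 (SE, adjusted p = 2.28e-05).

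**Figure D3:**
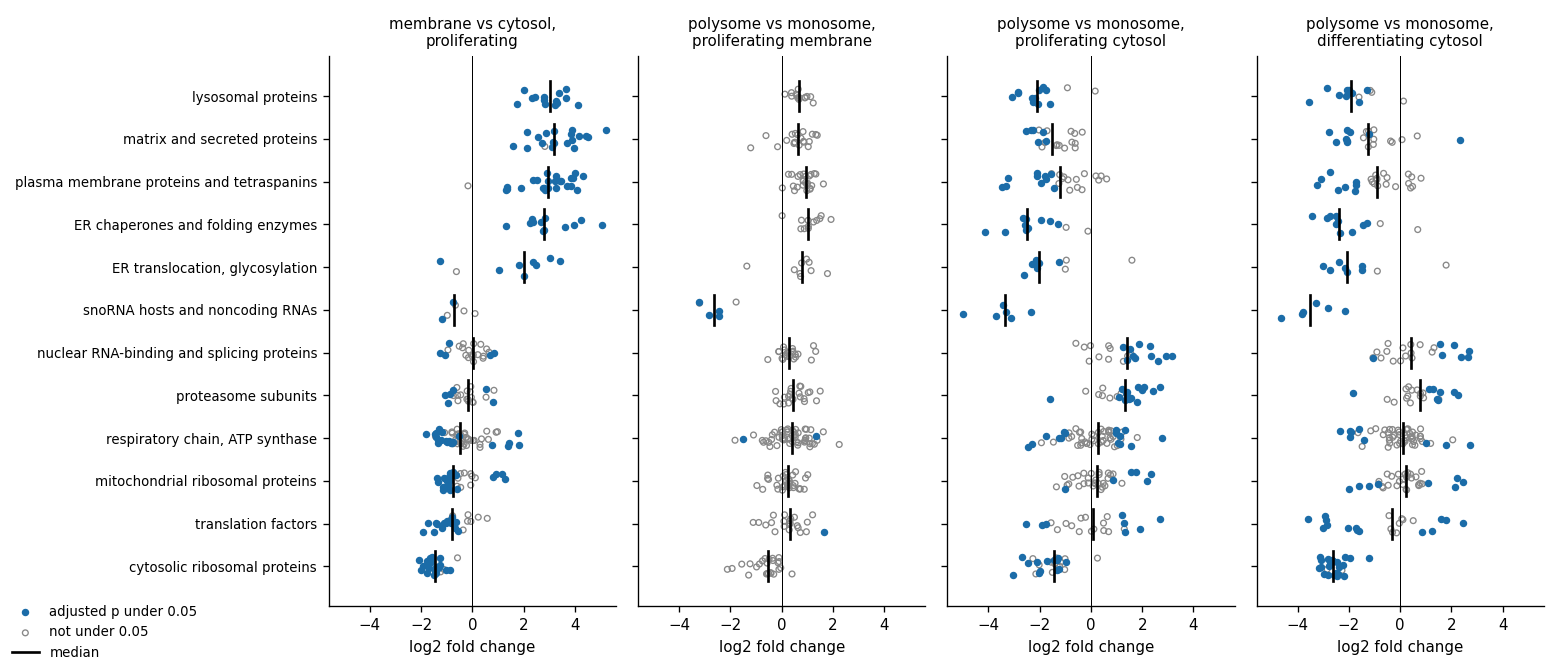
Log2 ratios of the one-site members of 12 gene lists in 4 comparisons (membrane against cytosol and polysome against monosome). Filled points passed the adjusted p of 0.05, open points did not, and the black bar is the list median, which in the first panel is 2.78 for ER chaperones and −1.46 for cytosolic ribosomal proteins.

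Both other measurements of the fractions placed most of these genes on the same side of the median of all genes, with 1 library each and no test. In RNA-seq reads of the constitutive 3′ UTR, 379 of 413 one-site genes called higher in the membrane gradient libraries (91.8%) were above the all-gene median of −0.44 in log2 membrane to cytosol, with a median of 2.01, and 327 of 365 called lower (89.6%) were below it, with a median of −1.03. In the whole fractions, where the all-gene median was −0.27, the counts were 662 of 675 (98.1%, median 2.51) and 517 of 528 (97.9%, median −1.12). These shares were counted for one-site genes alone. Without the same count for several-site or all genes they show no trait of the class.

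In differentiating cells the same fractions gave smaller numbers of calls. Here 491 one-site genes were higher in membrane and 294 lower, several-site genes had 531 and 248, and over all genes 14.3% were higher and 5.67% lower. Medians were −0.10 for one-site, 0.01 for several-site and 0.06 for all genes. Without any 1 of the 8 differentiating libraries, between 119 and 194 one-site genes were called lower. Of the 724 one-site genes higher in proliferating membrane, 472 (65.2%) were also called in differentiating cells, where they made up 96.1% of the 491. Of the 530 lower ones, 264 (49.8%) were called again, which is 89.8% of the 294. Overlaps of calls, here and below, were counted for one-site genes alone. Without the same count for several-site or all genes they show no trait of the class.

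The lists lay on the same sides of 0 in differentiating cells. Of the one-site members, 9 of 12 ER chaperones (median 1.84), 18 of 20 matrix genes (2.55), 20 of 25 plasma membrane genes (2.23), 14 of 14 lysosomal genes (2.27) and 4 of 9 translocation genes (0.97) were higher in membrane, and 10 of 25 ribosomal proteins were lower (−0.87). Col3a1 had 3727 and 4129 CPM in membrane polysome, 5937 and 6256 CPM in membrane monosome, 126 and 121 CPM in cytosol polysome and 259 and 327 CPM in cytosol monosome libraries of differentiating cells. Its fractions did not overlap, and the log2 ratio was 4.68 ± 0.38 (SE, adjusted p = 1.19e-05). Pdia3 had 621 and 629 CPM in membrane polysome and 486 and 544 CPM in membrane monosome libraries, against 27 and 36.9 CPM in cytosol polysome and 70.3 and 87.3 CPM in cytosol monosome libraries, a log2 ratio of 3.50 ± 0.26 (SE, adjusted p = 1.04e-05).

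The test of the difference between states itself called 0 genes of any class with edgeR at an adjusted p of 0.05 (0% of all genes). At an unadjusted p under 0.05 it gave 194 one-site genes, 239 several-site genes and 657 of all genes. The DESeq2 test called 2 one-site genes higher and 5 lower, with 4 and 9 over all genes. The medians of the difference, differentiating minus proliferating, were −1.16 for one-site ER chaperones, −0.88 for matrix genes, −0.86 for plasma membrane genes, −0.78 for lysosomal genes and 0.59 for ribosomal proteins, against −0.08 for all genes.

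Within the cytosol of proliferating cells, polysome and monosome libraries differed in many one-site genes. Higher in polysomes were 532 one-site genes and lower 465, several-site genes had 498 and 482, and over all genes 11.4% were higher and 12.8% lower. Medians, in log2 polysome to monosome, were 0.16 for one-site, 0.10 for several-site and −0.02 for all genes. The counts depended on single libraries. Without the first or second cytosol monosome library, 236 and 308 one-site genes were higher and 324 and 345 lower, and without the first or second cytosol polysome library 332 and 294 were higher and 313 and 228 lower.

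Proteasome, splicing, chromatin, glycolytic, chaperonin and cell cycle genes that passed the test were mostly higher in cytosolic polysomes. Of the one-site members, 14 of 22 proteasome subunits were higher and 1 lower (median 1.34), 11 of 22 splicing proteins were higher (1.43), 7 of 14 chromatin proteins (1.11), 5 of 9 glycolytic enzymes (1.54), 5 of 12 chaperonin and heat shock genes (1.09) and 7 of 25 cell cycle genes (0.90), with 0 lower in these 5 lists. H1fx, a linker histone whose mRNA is polyadenylated, at chromosome 6, 87930415 (mm9, minus strand), had 125 and 92.1 CPM in cytosol polysome against 9.4 and 7.1 CPM in cytosol monosome libraries. The gradient parts were more than 9-fold apart in every pairing, and the log2 ratio was 3.72 ± 0.42 (SE, adjusted p = 0.000208). Srsf2, a splicing factor, had 2750 and 2444 CPM in cytosol polysome against 347 and 332 CPM in cytosol monosome libraries, a log2 ratio of 2.94 ± 0.33 (SE, adjusted p = 0.000204). Psmd13, a proteasome lid subunit, had 218 and 240 CPM against 38.4 and 33.1 CPM in the same order, a log2 ratio of 2.68 ± 0.35 (SE, adjusted p = 0.000306).

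Genes of the secretory route, ribosomal proteins and noncoding RNAs were low in cytosolic polysomes relative to monosomes. Of the one-site members, 10 of 12 ER chaperones were lower (median −2.49), 12 of 14 lysosomal genes (−2.12), 6 of 9 translocation genes (−2.01), 10 of 25 plasma membrane genes (−1.22), 6 of 20 matrix genes (−1.53) and 13 of 25 ribosomal proteins (−1.46), with 0 higher in each. The 6 one-site noncoding RNAs, hosts of small nucleolar RNAs and H19, were all lower, with a median of −3.37. Manf, a secreted ER stress protein, had 102 and 70.7 CPM in cytosol polysome against 871 and 866 CPM in cytosol monosome libraries, a log2 ratio of −3.33 ± 0.38 (SE, adjusted p = 0.000208). Sgcb, a sarcoglycan of the muscle cell membrane, had 2.86 and 1.28 CPM against 45.1 and 31.7 CPM in the same order, with −4.20 ± 0.39 (SE, adjusted p = 0.000121). Sepw1, a small selenoprotein at chromosome 7, 16502562 (mm9, minus strand), had 553 and 504 CPM in cytosol polysome against 11776 and 11380 CPM in cytosol monosome libraries. Its replicates lay close together and the parts far apart, with −4.45 ± 0.31 (SE, adjusted p = 1.81e-05).

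In the membrane fraction of proliferating cells the polysome to monosome comparison called few genes, 18 one-site genes higher and 19 lower, 21 and 13 several-site genes, and 0.359% and 0.448% of all genes. Medians were 0.34 for one-site, 0.33 for several-site and 0.21 for all genes. Without any 1 of the 4 membrane libraries 0 or 1 one-site genes were higher and 0 to 14 lower. DESeq2 called 76 one-site genes in each direction, with 150 higher and 211 lower over all genes. Its size factors in edgeR gave 6 one-site genes higher and 27 lower, with 17 higher and 75 lower over all genes. Among one-site genes the lower ones included Snhg3 with −3.22 ± 0.50 (SE, adjusted p = 0.0145), Snhg8 with −2.83 ± 0.33 (adjusted p = 0.0046) and Sepw1 with −2.69 ± 0.29 (adjusted p = 0.00339). The higher ones were led by Ptrf, a coat protein of caveolae, with 2.12 ± 0.34 (SE, adjusted p = 0.0169). None of the secretory lists had a call, and their medians were 1.04 for ER chaperones, 0.94 for plasma membrane, 0.66 for lysosomal and 0.65 for matrix genes.

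Snhg1, a noncoding host of small nucleolar RNAs at chromosome 19, 8800933 (mm9, plus strand), was low in polysomes of both fractions. It had 76.5 and 168 CPM in membrane polysome against 488 and 852 CPM in membrane monosome libraries, and 114 and 162 CPM in cytosol polysome against 1120 and 1857 CPM in cytosol monosome libraries. In either fraction the gradient parts did not overlap. The log2 ratios were −2.45 ± 0.46 (SE, adjusted p = 0.0305) in membrane and −3.43 ± 0.48 (SE, adjusted p = 0.000451) in cytosol.

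The difference between these comparisons was tested directly, as the polysome to monosome ratio in membrane minus that in cytosol. It was positive and past the test in 265 one-site genes and negative in 52, with 289 and 54 several-site genes and 6.12% and 1.11% of all genes. Medians were 0.06 for one-site, 0.09 for several-site and 0.10 for all genes. Of the one-site members, 10 of 12 ER chaperones (median 3.48), 11 of 14 lysosomal genes (2.72), 5 of 9 translocation genes (2.74), 10 of 25 plasma membrane genes (2.16) and 4 of 20 matrix genes (2.13) were positive, with 0 negative. Splicing proteins had 5 of 22 negative and 0 positive (median −0.997). Secretory mRNAs left in the cytosol thus lay in monosomes more than those in the membrane fraction did. Without single libraries the positive count was 117 to 221, lowest without the first membrane monosome library (117), the second cytosol polysome library (135) and the second membrane polysome library (148). The negative count was 45 without the first membrane monosome library and between 16 and 45 without each of the others.

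Sgcb showed this at its strongest. It had 86 and 106 CPM in membrane polysome against 42.2 and 44.1 CPM in membrane monosome libraries, so that polysome values were higher in membrane and, as given above, far lower in cytosol. The difference of log2 ratios was 5.35 ± 0.51 (SE, adjusted p = 0.000366). Manf had 1452 and 2191 CPM in membrane polysome against 797 and 1335 CPM in membrane monosome libraries, a difference to the cytosol of 4.104 ± 0.51 (SE, adjusted p = 0.000839). Cd63 had a difference of 2.85 ± 0.63 (SE, adjusted p = 0.0135). On the negative side, H1fx had 65.5 and 36.9 CPM in membrane polysome against 28 and 32.2 CPM in membrane monosome libraries. Its polysome excess was far smaller than in cytosol, with a difference of −2.95 ± 0.54 (SE, adjusted p = 0.00477).

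**Figure D4:**
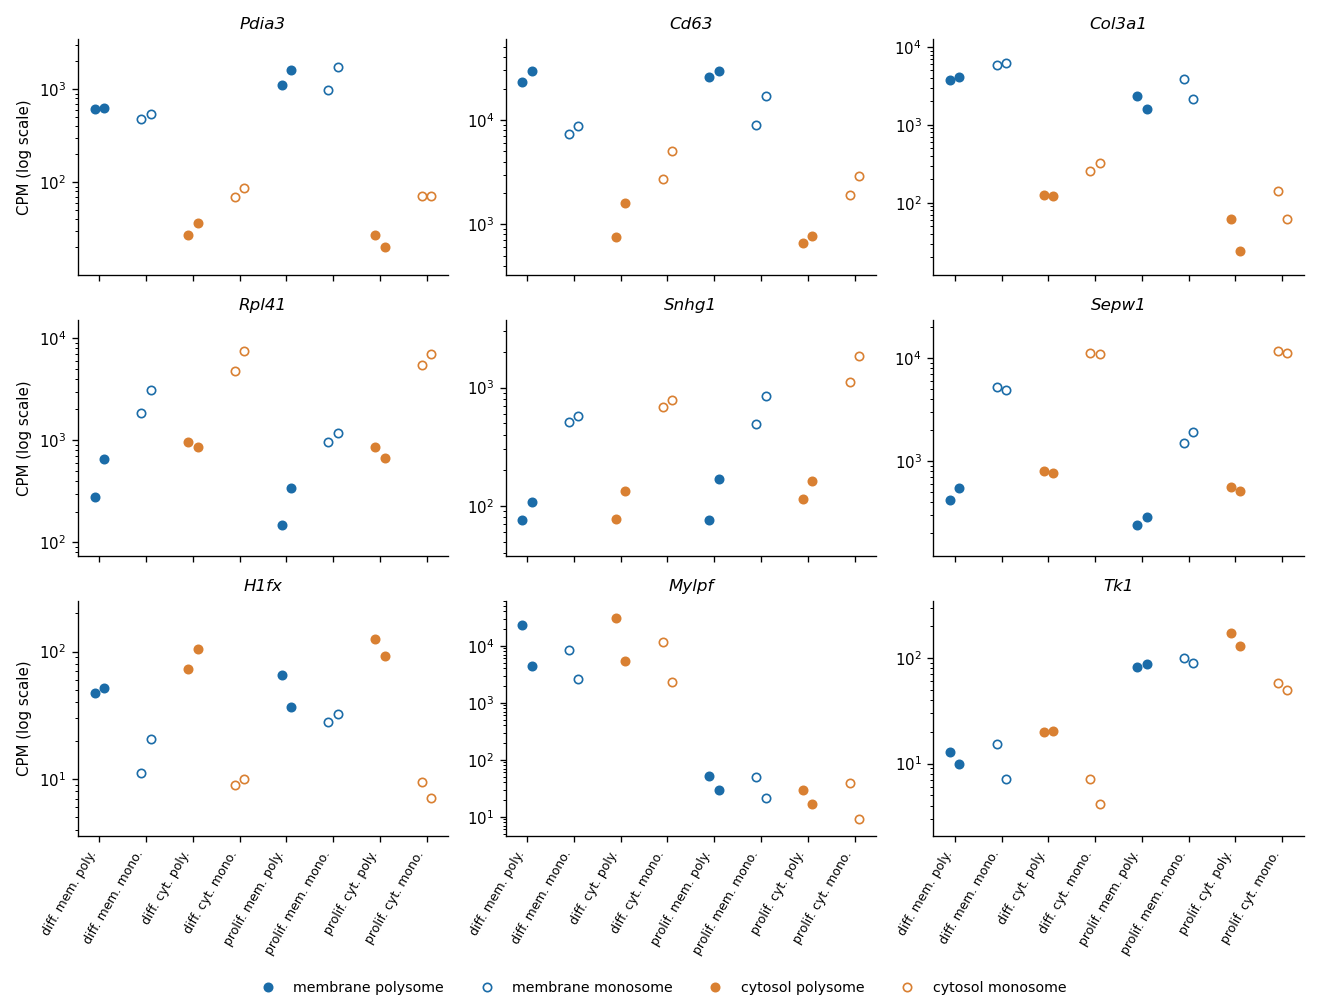
CPM on a log scale of 9 one-site genes in the 16 gradient libraries, membrane in blue and cytosol in orange, polysome filled and monosome open, 2 libraries per group, with differentiating left of proliferating. Pdia3, Cd63 and Col3a1 have all membrane points above all cytosol points, Snhg1 and Sepw1 have polysome points below monosome points, and Mylpf and Tk1 separate the states.

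In differentiating cells the cytosol gave 544 one-site genes higher in polysomes and 435 lower, 559 and 413 several-site genes, and 12.7% and 11.4% of all genes. Medians were 0.18, 0.19 and 0.07 for one-site, several-site and all genes. With DESeq2 size factors 450 one-site genes were higher and 502 lower, and over all genes 1134 and 1550. Without the first or second cytosol polysome library 348 and 388 were higher and 239 and 269 lower, and without the first or second cytosol monosome library 301 and 360 were higher and 294 and 300 lower. Of the genes called in proliferating cytosol, 392 higher ones (73.7%) and 358 lower ones (77.0%) were called again, which made up 72.1% and 82.3% of the calls in differentiating cells.

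Ribosomal proteins were low in polysomes of differentiating cells in both fractions. In cytosol 23 of 25 one-site members were lower with a median of −2.62, and in membrane 16 of 25 with −2.28, with 0 higher in either. Rpl39, at X, 34622547 (mm9, minus strand), had 30.7 and 44.7 CPM in membrane polysome against 202 and 409 CPM in membrane monosome libraries, and 49.1 and 87.9 CPM in cytosol polysome against 373 and 600 CPM in cytosol monosome libraries. Polysome values were several-fold lower in both fractions, with log2 ratios of −3.02 ± 0.47 (SE, adjusted p = 0.0059) in membrane and −2.83 ± 0.47 (SE, adjusted p = 0.00116) in cytosol. Whether these ratios differ from those of proliferating cells was not tested.

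The differentiating membrane fraction had 113 one-site genes higher in polysomes and 90 lower, with 112 and 58 several-site genes and 2.21% and 1.99% of all genes. Medians were 0.32 for one-site, 0.36 for several-site and 0.25 for all genes. With size factors the one-site split was 55 higher and 105 lower, and over all genes 133 and 254, against 246 and 222 with the scaling used here. Without any 1 of the 4 membrane libraries only 0 to 11 one-site genes were higher and 5 to 35 lower. All 6 one-site noncoding RNAs were lower in polysomes, with a median of −3.19. H19, an imprinted noncoding RNA of muscle precursors at chromosome 7, 149761436 (mm9, minus strand), had 1097 and 1619 CPM in membrane polysome against 16561 and 13530 CPM in membrane monosome libraries of differentiating cells. The parts were at least 8-fold apart, with a log2 ratio of −3.47 ± 0.81 (SE, adjusted p = 0.0351). Of the lower genes in proliferating membrane, 18 of 19 (94.7%) were called again, and of the higher ones 13 of 18 (72.2%).

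Between states, 500 one-site genes were higher in differentiating than in proliferating cells and 613 lower, with 405 and 694 several-site genes and 16.3% and 19.3% of all genes. Medians were −0.06 for one-site, −0.12 for several-site and −0.09 for all genes. In the polysome libraries alone, whose medium labels match their states, 270 one-site genes were higher and 305 lower, with 208 and 328 several-site genes and 8.64% and 8.79% of all genes. Leaving out single libraries gave 416 to 526 higher and 439 to 592 lower. With DESeq2 size factors 594 one-site genes were higher and 512 lower, and 2110 and 1832 of all genes, so which direction held more genes depended on the scaling.

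Muscle genes rose in differentiating cells. Of 31 one-site muscle genes 29 were higher, with a median log2 ratio of 7.37, and of 7 several-site ones 7 (7.07). The read minimum counted the differentiating libraries too, so genes with reads almost only there could enter. Of 59 muscle genes with reads 38 reached it, and 15 one-site ones passed the low-count filter of the puromycin set, made from proliferating cells. The rise of these lists was thus partly fixed by the choice. Ankrd1, a stress-responsive muscle ankyrin protein, had −0.28 and Acta2, smooth muscle actin, 0.20, and neither was called. Mylpf, the fast skeletal regulatory myosin light chain at chromosome 7, 134357802 (mm9, plus strand), had 22831 and 4438 CPM in membrane polysome, 8449 and 2663 CPM in membrane monosome, 30777 and 5364 CPM in cytosol polysome and 11465 and 2351 CPM in cytosol monosome libraries of differentiating cells. In proliferating cells it had 50.8 and 29.4, 50.4 and 21.3, 29.9 and 16.5, and 39.5 and 9.1 CPM in the same order of groups. The states did not overlap, although the first differentiating replicate of each group was several-fold above the second, and the log2 ratio was 8.36 ± 0.71 (SE, adjusted p = 5.79e-06). Ckm, muscle creatine kinase, had 17.4 to 190 CPM in differentiating and 0 to 0.547 CPM in proliferating gradient libraries. Mfap5, a microfibril protein of the matrix, had 3.96 ± 0.16 (SE, adjusted p = 8.26e-09) and H19 had 4.37 ± 0.42 (SE, adjusted p = 9.14e-06).

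Cell cycle and replication genes fell. Of 25 one-site members 19 were lower and 2 higher, with a median of −1.77, and the higher ones, the cyclin Ccnd3 with 1.85 and the kinase inhibitor Cdkn1a with 2.16, are known to rise as myoblasts leave the cycle. Tk1, thymidine kinase, at chromosome 11, 117676837 (mm9, minus strand), had 12.7 and 9.97 CPM in membrane polysome, 15.2 and 7.07 CPM in membrane monosome, 19.7 and 20.3 CPM in cytosol polysome and 7.2 and 4.09 CPM in cytosol monosome libraries of differentiating cells. In proliferating cells it had 82.2 and 88.5, 99.4 and 90.6, 174 and 130, and 57.5 and 50.2 CPM in the same order of groups. All differentiating values lay below all proliferating ones, with a log2 ratio of −3.03 ± 0.19 (SE, adjusted p = 3.57e-07). Of 22 splicing proteins 14 were lower and 0 higher (median −0.62). Of 55 respiratory genes 20 were higher and 3 lower (0.39), and the lower ones were Uqcrc1, Atp5b and Atp5g3. In the polysome libraries alone 6 respiratory genes were higher and 1 lower, with 29 of 31 muscle genes higher and 18 of 25 cell cycle genes lower (median −1.96). Of several-site members there, 19 of 21 cell cycle genes were lower (−2.25) and 7 of 7 muscle genes higher. Of 10 several-site respiratory genes 0 were higher and 1 lower. Splicing proteins were lower there in 11 of 22 one-site and 19 of 29 several-site members. The fall of cell cycle and splicing genes was thus shared by both classes.

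In the puromycin set, 2711 of the 2735 one-site genes and 2809 several-site genes passed the filter on low counts. Over all 4 exposures, with each exposure as a pair, 251 one-site genes were higher in membrane than in cytosol and 635 lower, with 363 and 536 several-site genes and 11.5% and 13.7% of all 9871 genes. Medians were −0.14 for one-site, −0.00 for several-site and 0.11 for all genes. Without the untreated pair edgeR called 0 in either direction. DESeq2 on all pairs called 500 one-site genes higher and 892 lower, with 2066 and 2076 over all genes. Of the 724 one-site genes higher in the membrane gradient libraries, 167 (23.1%) were called higher here, which is 66.5% of the 251, and of the 530 lower ones 331 (62.5%) were called lower, which is 52.1% of the 635. Only Idh3g, Ndufb5, Psmd6 and S100a6 were called in opposite directions in the sets of libraries.

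Over all exposures 4 of 20 one-site matrix genes, 1 of 25 plasma membrane genes and 0 of 12 ER chaperones and 0 of 14 lysosomal genes were called higher, and their ratios differed between exposures. The median log2 membrane to cytosol ratio of one-site ER chaperones was 3.66 in untreated cells, 3.71 at 0 min, −0.37 at 30 min and −0.48 at 60 min of puromycin. The lysosomal genes had 3.83, 4.29, −0.20 and −0.44 at these times, plasma membrane genes 3.80, 3.91, −0.26 and −0.22, and matrix and secreted genes 3.70, 4.42, −0.05 and −0.16. Ribosomal proteins had −1.51, −1.50, −0.24 and −0.20. Both ends of the range of these one-site lists thus lay near 0 by 30 min, and each time has a single library per fraction. Several-site members had medians at 30 and 60 min of −0.497 and −0.254 for ER chaperones and −0.487 and −0.595 for lysosomal genes. Plasma membrane genes had −0.16 and 0.03 and ribosomal proteins −0.495 and −0.381 in the same order. Matrix and secreted genes of this class lay higher, at 0.79 and 0.55. In untreated cells these several-site lists had 3.69, 3.48, 3.75, −1.44 and 3.67. The class differences were not tested.

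The 724 one-site genes higher in the membrane gradient libraries had median ratios of 2.42 untreated, 2.71 at 0 min, 0.25 at 30 min and 0.14 at 60 min, and the 794 several-site ones 2.21, 2.50, 0.33 and 0.24. The 529 one-site genes lower there had −1.18, −1.04, −0.59 and −0.58, and the 497 several-site ones −1.10, −1.10, −0.55 and −0.53. At least 2-fold higher in membrane were 636, 650, 293 and 247 one-site genes at the 4 times, and 692, 713, 400 and 340 several-site genes. These were 23.5, 23.98, 10.8 and 9.11% of one-site genes and 24.6, 25.4, 14.2 and 12.1% of several-site genes, beside 25.8, 27.5, 17.1 and 15.3% of all genes tested, and the differences between classes were not tested.

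**Figure D5:**
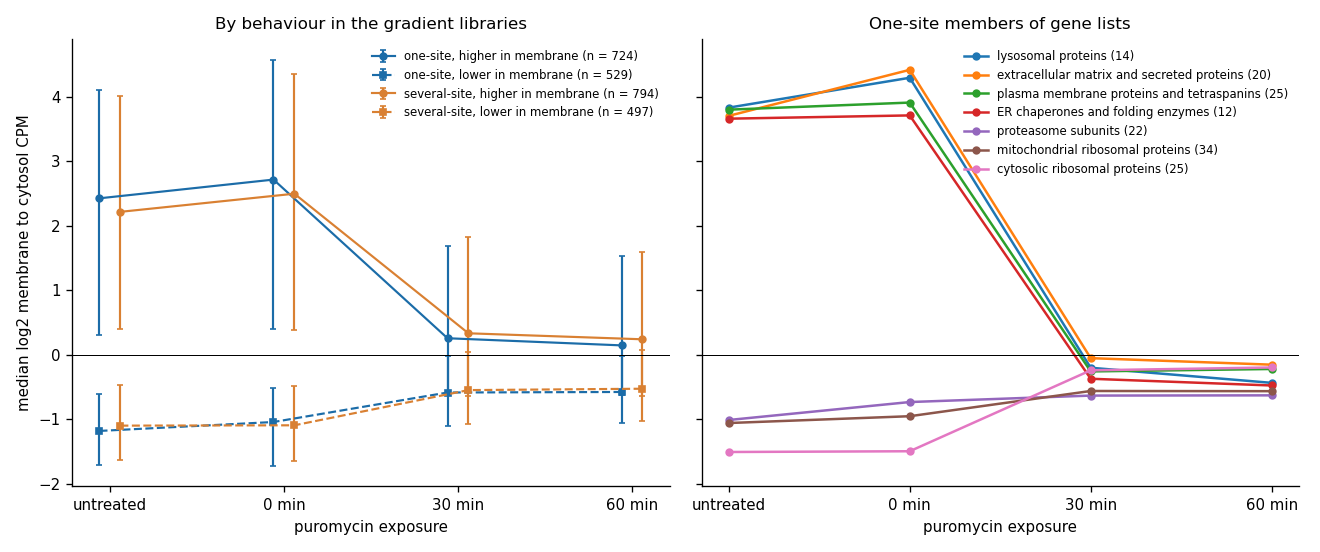
Log2 membrane to cytosol ratio in untreated cells and after 0, 30 and 60 min of puromycin. Left, medians of one-site and several-site genes called higher or lower in the membrane gradient libraries, with bars from the 10th to the 90th percentile; right, medians of the one-site members of gene lists, where ER chaperones go through 3.66, 3.71, −0.37 and −0.48.

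A slope of the ratio on exposure, per 30 min with untreated cells as 0 min, called 0 genes of any class with edgeR (0% of all genes), with 2 residual degrees of freedom. At an unadjusted p under 0.05 it gave 857 one-site genes, 897 several-site genes and 2527 of all genes. DESeq2 called 22 one-site genes up and 437 down, with 52 and 1146 over all genes. The medians of the slope were 0.12 for one-site, 0.13 for several-site and 0.11 for all genes. Setting 30 and 60 min against untreated and 0 min, which takes the 2 times of each side as replicates, called 763 one-site genes up and 674 down, with 782 and 675 several-site genes and 19.2% and 20.7% of all genes. In this comparison 12 of 12 one-site ER chaperones (median −4.42), 14 of 14 lysosomal (−4.53), 24 of 25 plasma membrane (−3.76), 18 of 20 matrix (−3.77) and 7 of 9 translocation genes (−1.96) went down, and 25 of 25 ribosomal proteins went up (1.33). Several-site members of these lists moved the same way. Down were 10 of 10 ER chaperones (−4.14), 10 of 10 lysosomal (−4.02) and 20 of 20 plasma membrane genes (−3.49). So were 16 of 19 matrix (−2.96, 1 up) and 16 of 16 translocation genes (−4.06), while 18 of 19 ribosomal proteins went up (1.08). Differences between the classes were not tested.

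Pdia3 had 2340 CPM in membrane and 87 CPM in cytosol of untreated cells, 2488 and 67.8 CPM at 0 min, 994 and 1331 CPM at 30 min, and 1068 and 1421 CPM at 60 min. Membrane was more than 20-fold above cytosol before the drug acted and below it afterwards. Cd63 had 22545 and 1253 CPM, 22089 and 858 CPM, 10618 and 12711 CPM, and 10546 and 12298 CPM in membrane and cytosol at these times. Changes after exposure, here and below, come from the fit that takes the 2 times of each side as replicates. Like the slope, it leaves 2 residual degrees of freedom. With 1 library per fraction and time, its SE and p-values do not measure the spread between repeated experiments. The change after exposure was −5.39 ± 0.19 (SE, adjusted p = 6.17e-11) for Pdia3 and −4.67 ± 0.19 (SE, adjusted p = 7.44e-11) for Cd63, while their slopes per 30 min were −2.92 ± 0.67 and −2.53 ± 0.59 (SE, adjusted p = 0.11 each). Rpl8, a ribosomal protein, had 12122 and 39180 CPM, 17696 and 49956 CPM, 25904 and 28819 CPM, and 23334 and 23047 CPM in the same order. It was low in membrane before exposure and near parity after it, a change of 1.53 ± 0.16 (SE, adjusted p = 1.04e-06).

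Some one-site genes stayed past a 2-fold membrane excess. Of 587 one-site genes at least 2-fold higher in membrane both untreated and at 0 min, 113 (19.3%) were still so at 30 and 60 min, and 259 had a ratio below 0 at 60 min. For several-site genes the numbers were 640, 134 (20.9%) and 264, and for all genes 2219 and 513 (23.1%). Among the lists, 4 of 20 matrix genes (Col1a1, Col3a1, Col4a2 and Lamb1) and 3 of 23 plasma membrane genes, the integrins Itga5, Itga7 and Itgav, were among them, against 0 of 12 ER chaperones, 0 of 14 lysosomal genes and 0 of 6 translocation genes. The other list members among the 113 were Mki67, a chromosome coat protein of dividing cells, and Baz1b, a chromatin remodeller, and the remaining genes were in no list.

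Cstf2t had 1344 CPM in membrane and 32.7 CPM in cytosol of untreated cells, 1038 and 10.4 CPM at 0 min, 917 and 9.62 CPM at 30 min, and 502 and 9.06 CPM at 60 min. It stayed more than 40-fold higher in membrane at every time. Its change after exposure was 0.30 ± 0.42 (SE, adjusted p = 0.611), and over all exposures its log2 ratio was 6.09 ± 0.32 (SE, adjusted p = 0.013). Hspg2, the basement membrane proteoglycan perlecan, had 1510 and 138 CPM, 1632 and 72.1 CPM, 2700 and 89.9 CPM, and 1965 and 84.7 CPM in membrane and cytosol at these times. Its ratio did not drop, with a change of 0.76 ± 0.29 (SE, adjusted p = 0.0574). Lama5, a laminin chain, had log2 ratios of 3.73, 4.59, 5.33 and 4.38, and Col5a3, a collagen chain, 3.57, 4.66, 5.16 and 5.11. Col3a1 had 2828 and 106 CPM, 3271 and 65.8 CPM, 3772 and 470 CPM, and 3166 and 370 CPM in membrane and cytosol. It fell but stayed about 8-fold higher in membrane, with log2 ratios of 3.00 and 3.10 at 30 and 60 min and a change of −2.13 ± 0.23 (SE, adjusted p = 3.19e-06).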

How the data were processed

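The deposited poly(A) site table held read counts in 1 column per 3′ end library, and the deposited RNA-seq table held read counts in the alternative and constitutive 3′ UTR parts of 11733 genes, per the file headers. Build mm9, cutadapt, Bowtie2 and STAR 2.5.2 are named in the submitters' processing notes without their roles. How reads were counted, and whether strand was used in RNA-seq, is not given in the sources used here. Symbols were taken as the files give them, and 3 one-site symbols had been turned into dates.

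The 651 positions under more than 1 symbol, with 0.56% of reads, were left out, and counts were summed per gene. Low counts were removed with filterByExpr and libraries scaled by TMM. Genes were tested by the robust quasi-likelihood method of edgeR 4.0.16 under R 4.3.3, and p-values were adjusted over all genes by Benjamini-Hochberg at 0.05. All 16 gradient libraries shared 1 fit with 8 group means. The membrane to cytosol ratio averaged both gradient parts with equal weight. In the puromycin set each exposure entered as a pair of libraries. The SE was the size of the log2 change divided by the square root of F. CPM of single genes used TMM-scaled library sizes, while summed marker CPM used the plain total of reads in genes. The puromycin ratios used a pseudocount of 0.5 reads. The fits were tested on simulated data with the same spread for all genes. In membrane against cytosol of proliferating cells, 67% of log2 changes of 1 and 100% of those of 2 were recovered. For the puromycin slope these shares were 54% and 100%. Calls among unchanged genes were 14 of 10439 and 6 of 9536 in the same order.

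The members and gene lists were chosen with earlier results of these data known, so classes and lists are described by counts and medians with no test of their own. Named genes were, per comparison, up to 10 one-site genes per direction with the largest change past the test. They needed an average level of 10 CPM or more and 1 sign across replicate numbers. Per list, the most abundant member and that with the lowest p were added. Clone and predicted gene symbols were passed over. Genes named beyond that (list members not called or on the other side, retained genes, genes of the opposite direction) were chosen after their values were seen. Alternatives were DESeq2 1.42.0 and its size factors, no filter, fits of 1 state, a replicate block, other limits for the choice of genes and leaving out each library. Python 3.11.15 with pandas 2.3.3, NumPy 2.4.6 and matplotlib 3.10.9 did the rest. No interval is given for single libraries.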

Additional observations from a re-analysis of the deposited data

Results flagged for a closer look

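In 10 one-site genes the polysome to monosome ratio of proliferating cells differed between membrane and cytosol by the test of the difference itself, with the largest values in each direction among those named. The log2 difference, membrane minus cytosol, was 5.35 for Sgcb, 5.03 for Fkbp7, an ER prolyl isomerase, 4.61 for H2-K1, a class I histocompatibility chain, 4.58 for Slc35e1, a solute carrier, and 4.51 for Atp11b, a phospholipid flippase. All 5 encode proteins of the membrane system. H2-K1 had 52.7 and 36.5 CPM in membrane polysome against 27 and 13.3 CPM in membrane monosome libraries, and 0.673 and 0.48 CPM in cytosol polysome against 10.5 and 2.88 CPM in cytosol monosome libraries. Atp11b had 61.9 and 104 CPM, 39.2 and 56 CPM, 4.54 and 6.08 CPM, and 62.7 and 77.2 CPM in the same order of groups. The cytosol polysome values of H2-K1 and Fkbp7 rest on levels under 1 CPM.

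The difference was −2.95 for H1fx, −2.87 for Srsf5, a splicing factor, −2.76 for Pelo, a ribosome rescue factor, −2.75 for Klhl9, an adaptor of a ubiquitin ligase, and −2.73 for Cdkn1b, an inhibitor of cyclin-dependent kinases. Cdkn1b had 63.9 and 46 CPM in membrane polysome against 124 and 96.4 CPM in membrane monosome libraries, and 49.4 and 52.1 CPM in cytosol polysome against 19.6 and 11.1 CPM in cytosol monosome libraries. Its polysome values were thus lower in membrane and higher in cytosol. Klhl9 had 98.9 and 91.6 CPM, 163 and 308 CPM, 56.2 and 47.2 CPM, and 19.1 and 18.9 CPM in the same order, the same pattern. The reason for these differences was not tested.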

How the results depend on the processing

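No alternative turned the direction of a named one-site gene. Most of these genes were chosen for large changes of 1 sign across replicate numbers in these same libraries. Their stable direction was thus largely fixed by the choice. Of 558 named results, calls changed for 19 with DESeq2 size factors, 54 became calls with the DESeq2 test, and 30 changed without a filter on low counts. Without the untreated pair 43 of the named puromycin results lost their call, with the replicate block 85 became calls, and leaving out 1 library lost up to 35, the most without the first differentiating membrane polysome library. Limits apply throughout. With 2 libraries per group, leaving out any 1 leaves a group with 1 library. Polysome against monosome calls within the membrane fraction were then fewer, whichever membrane library was left out. Each puromycin time has 1 library per fraction. Class differences in the median are of the size by which the choice of genes moves them. The planned split by hydrophobic protein segments with its alternative, protein length and poly(A) signal hexamers were not run. The cause of each change listed here was not tested.

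The counts below are of one-site genes, and unless stated no count over all genes stands beside them. They describe how calls moved with the processing and no trait of one-site genes. With the replicate number as a block, one-site counts higher and lower were 794 and 837 in membrane against cytosol of differentiating cells, with 961 lower in proliferating cells. In polysome against monosome the block gave 740 and 194 in proliferating membrane, 1005 and 812 in proliferating cytosol, 846 and 338 in differentiating membrane and 1006 and 754 in differentiating cytosol. It gave 42 and 196 for the state difference of the membrane ratio, 681 and 460 for the fraction difference of the polysome ratio and 820 and 992 between states. Deviations of same-numbered libraries correlated at 0.62 to 0.80 in differentiating and 0.58 to 0.74 in proliferating cells. With 2 numbers this does not show that they mark shared cultures.

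The DESeq2 test gave 502 one-site genes lower in differentiating membrane, beside 1131 over all genes. In polysome against monosome it gave 76 and 76 in proliferating membrane, with a class difference in the median log2 (one-site minus several-site) of 0.0124, and 186 and 187 in differentiating membrane. Over all genes the differentiating membrane counts were 417 and 501. The DESeq2 test gave 2 and 5 for the state difference and 148 lower for the fraction difference, the latter beside 362 over all genes. It gave 500 higher over the puromycin libraries and 22 and 437 for the slope. With size factors 6 and 55 one-site genes were higher in polysomes of proliferating and differentiating membrane, with a class difference of 0.0117 in the proliferating one. They put the median of all genes at 0.04 in polysome against monosome of proliferating membrane, 0.09 in that of differentiating membrane and −0.11 in that of differentiating cytosol, against 0.21, 0.25 and 0.07 with TMM. No filter gave 6 and 36 with a class difference of 0.0114 there, 55 higher in differentiating membrane, and 83 lower for the fraction difference. Proliferating libraries alone gave 0 and 0 in proliferating membrane, and differentiating libraries alone 3 and 45 in differentiating membrane. Between states, polysome libraries alone gave 270 and 305 with a class difference of 0.0217. Without the untreated pair the puromycin libraries gave 0 and 0, and exposed against not exposed gave 763 and 674 in place of the slope.

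Reads of the leading site alone gave class differences of −0.138 in membrane against cytosol of differentiating cells, −0.0129 in polysome against monosome of proliferating membrane (5 higher), −0.0613 in that of differentiating cytosol and −0.170 over the puromycin libraries, and 70 higher in differentiating membrane. A limit of 90% gave class differences of −0.0564 and −0.0647 in membrane against cytosol of proliferating and differentiating cells, 0.0141 and 0.111 in polysome against monosome of proliferating membrane and cytosol, 0.00227 and 0.0351 in that of differentiating membrane and cytosol, and −0.0668 for the fraction difference.

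A limit of 99% gave 434 higher with −0.204 and 301 higher with −0.146 in membrane against cytosol of proliferating and differentiating cells. In polysome against monosome it gave 7 higher with −0.0306 in proliferating membrane, −0.0136 in proliferating cytosol, and 67 and 348 higher in differentiating membrane and cytosol. It gave 172 and 25 with −0.0497 for the fraction difference, 377 lower with 0.117 between states, 132 higher with −0.209 over the puromycin libraries and 0.00971 for the slope.

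A minimum of 10000 reads gave 407 higher with 0.0144 and 294 higher with −0.0110 in membrane against cytosol of proliferating and differentiating cells. In polysome against monosome it gave −0.0137 in proliferating membrane, 348 higher with −0.0489 in proliferating cytosol and 328 higher in differentiating cytosol. It gave 34 lower with 0.00658 for the fraction difference, 300 and 354 between states, and 110 higher with −0.0423 over the puromycin libraries. In RNA-seq, both 3′ UTR parts together moved the one-site median minus that of all genes to −0.0927, against −0.00362 with the constitutive part.

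Leaving out 1 library at a time gave 570 to 650 higher, 381 to 654 lower and a class difference of −0.146 to −0.0569 in membrane against cytosol of proliferating cells, and 416 to 445, 119 to 194 and −0.118 to −0.0754 in differentiating cells. In polysome against monosome the ranges were 0 to 1, 0 to 14 and −0.0252 to 0.00632 in proliferating membrane, 236 to 332, 228 to 345 and −0.00528 to 0.130 in proliferating cytosol, 0 to 11, 5 to 35 and −0.115 to −0.0357 in differentiating membrane, and 301 to 388, 239 to 300 and −0.0469 to 0.00129 in differentiating cytosol. They were 0, 0 and −0.0251 to 0.0428 for the state difference, 117 to 221, 16 to 45 and −0.118 to 0.0611 for the fraction difference, and 416 to 526, 439 to 592 and 0.0514 to 0.0840 between states.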
